A study of Mus musculus with 2 samples.

Results

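The chemokines and chemokine receptors of mouse mammary tumour cells are described here, taken as every gene in the deposited tables whose symbol is that of a Ccl, Cxcl, Cx3cl or Xcl ligand or of a Ccr, Cxcr, Cx3cr, Xcr or Ackr receptor. The rule found 55 genes of 16902 in all, 35 ligands and 20 receptors. The RNA came from epithelial cells sorted for EpCAM from PyMT;Zeb1cKO tumours, which carry the polyoma middle T oncogene and a conditional knockout of Zeb1, and from PyMT tumours, which carry the oncogene alone. Each genotype has 1 library, with 21277484 estimated counts in the PyMT;Zeb1cKO library, called the knockout library here, and 21580274 in the PyMT library. The sources used here do not give the promoter that drives the recombinase, the deleted part of Zeb1, the strain and age of the mice, or whether tumours were pooled. With 1 library a group there is no replicate error and no test between genotypes, and a difference of genotype cannot be told apart from one of tumour or animal. The study asked which signals of tumour cells link Zeb1, a repressor of epithelial genes, to M2-like macrophages, with the chemokine Cxcl1 as the named candidate.

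Chemokines are small, mostly secreted proteins that direct the movement of leukocytes through G protein-coupled receptors on the cell surface. They are grouped by the spacing of their first cysteines into CC, CXC, CX3C and XC classes, and many of the genes stand in tandem clusters. Atypical receptors (Ackr) bind chemokines without coupling to G proteins and remove or redistribute them. In mammary tumours, inflammatory chemokines recruit monocytes, neutrophils and T cells, while homeostatic chemokines position lymphocytes and stem or progenitor cells.

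Levels are given as FPKM, fragments scaled to gene length and library depth, which allows genes of different length to be set beside each other. The log2 ratio compares the libraries on a log2(FPKM + 1) scale, as knockout minus PyMT. The count ratio is that of estimated counts, each divided by its library's total, in the same direction, followed by an exact 95% interval that covers counting error only. Zeb1 itself had 38 counts in the knockout library and 96 in the PyMT library, a count ratio of 0.401 (0.268 to 0.59), and this count covers its whole length, the deleted part included. Markers of the sorted cells were abundant in both libraries, with a summed level of 2386 FPKM in the knockout library and 4936 FPKM in the PyMT library over 6 epithelial genes. Epcam, one of them, was at 479.7 FPKM in the knockout library and 740.8 FPKM in the PyMT library. In all, 3 of these 6 genes were lower by 2-fold or more in the knockout library. Among all genes that reached an FPKM of 1 in either library, 8.78% were. Leukocyte and stromal markers were also present. The 6 macrophage genes summed to 301.9 FPKM in the knockout library and 351.7 FPKM in the PyMT library, and the 6 fibroblast genes to 631.5 FPKM in the knockout library and 503.7 FPKM in the PyMT library. The cells that a chemokine read came from are therefore not known. Fewer cells of a type and less RNA per cell cannot be told apart in such libraries.

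As a pool, chemokine ligands were lower and their receptors higher in the knockout library. The ligands together had 3624 counts in the knockout library and 6586 in the PyMT library, a count ratio of 0.558 (0.536 to 0.581). The receptors had 2514 counts in the knockout library and 1991 in the PyMT library, a count ratio of 1.28 (1.21 to 1.36). With TMM factors in place of library totals this ratio was 1.15 (1.09 to 1.22). Few genes carried each pool. In the knockout library Cx3cl1, Ccl8 and Cxcl14 together held 44.7% of the ligands' summed FPKM. In the PyMT library Cxcl16 and Cx3cl1 together held 41.5% of it. Among the receptors, Cxcr4 held 55.1% of the summed FPKM in the knockout library, whereas Ackr3 held 47.9% in the PyMT library.

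**Figure D1:**
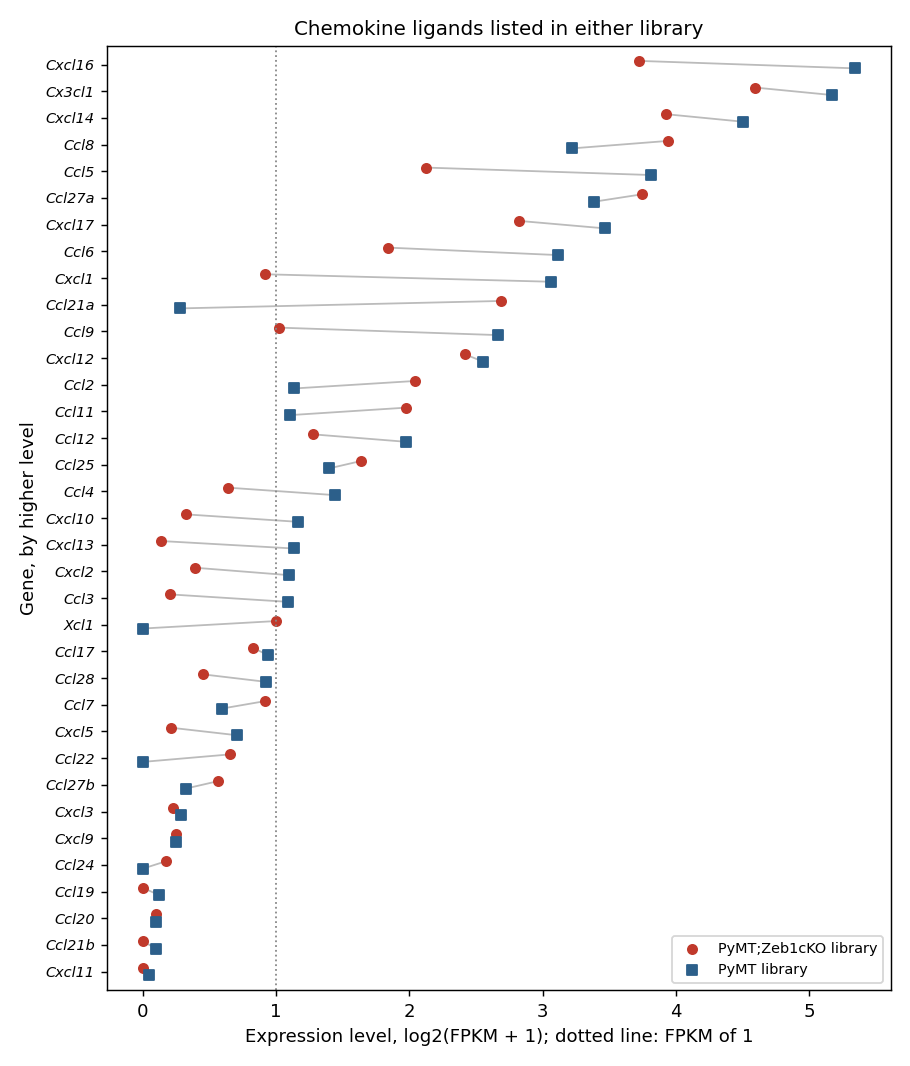
Levels of the 35 chemokine ligands as log2(FPKM + 1), with a circle for the PyMT;Zeb1cKO library and a square for the PyMT library, 1 library each, ordered by the higher level. Cxcl16 and Cx3cl1 have the highest levels in the PyMT library, and Ccl21a and Cxcl1 lie far apart between the libraries in opposite directions.

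Gene by gene, 29 of the 55 members reached an FPKM of 1 in either library and were compared. Of the 22 ligands compared, 2 were at least 2-fold higher on the log2(FPKM + 1) scale in the knockout library (9.09%) and 5 were at least 2-fold lower (22.7%). Among all 12653 genes compared the same way, 10.2% were higher and 8.78% were lower. Of the 7 receptors compared, 1 was higher and 1 was lower. The median log2 ratio was -0.67 for the ligands and -0.77 for the receptors, beside 0.13 for all genes. This median of the receptors depended on the filter on low values, and was 0.02 over all 20 receptors and 0.99 for the 3 with an FPKM of at least 5. The filter also shapes the counts, because 9 members passed it in the PyMT library alone and 2 in the knockout library alone. Of the 18 that passed in both libraries, 8 had a ratio above 0 and 10 a ratio below 0. Nearest to the threshold were Xcl1 just inside it, at 1.00, and Cxcr4 and Cxcl13 just outside, at 0.99 and -0.99.

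Of the 4 ligands of Cxcr2, the CXC chemokines with an ELR motif that attract neutrophils, Cxcl1 was lower by 2-fold or more in the knockout library, Cxcl2 was within 2-fold, and Cxcl3 and Cxcl5 were under the filter. Cxcl1, the ligand named in the study's title, was at 0.89 FPKM (15 counts) in the knockout library and 7.36 FPKM (123 counts) in the PyMT library, with the lowest log2 ratio of the compared members, -2.15. Cxcl2, its close relative, had 6 counts in the knockout library and 22 in the PyMT library, a count ratio of 0.277 (0.0918 to 0.703). Cxcl5 had 5 counts in the knockout library and 20 in the PyMT library, a count ratio of 0.254 (0.0744 to 0.696). For Cxcl3 the counts were 3 in the knockout library and 4 in the PyMT library, too few to place its ratio of 0.761 (0.111 to 4.5) on either side of 1. These 4 genes stand next to each other on chromosome 5, from 90759298 to 90905938 (GRCm38), and together had 29 counts in the knockout library and 169 in the PyMT library, a count ratio of 0.174 (0.113 to 0.259). Cxcl1 alone gave most of these counts in the PyMT library. Cxcr2, the receptor they share, was at 0.08 FPKM in the knockout library and 0.32 FPKM in the PyMT library, a count ratio of 0.254 (0.0744 to 0.696). Most neutrophil markers were lower too. Of 6 genes 5 were at least 2-fold lower, beside 8.78% of all genes compared. The 6 summed to 17.41 FPKM in the knockout library and 281.0 FPKM in the PyMT library. Most of both sums came from S100a8 and S100a9. S100a8 was at 14.99 FPKM in the knockout library and 225.8 FPKM in the PyMT library. S100a9 was at 1.03 FPKM in the knockout library and 39.1 FPKM in the PyMT library. Retnlg, Ngp and Camp passed the filter through the PyMT library alone, which fixes a log2 ratio below 0. The granule genes Ngp and Camp had no counts in the knockout library. Csf3r was within 2-fold, with a count ratio of 0.896 (0.668 to 1.2). The part of the neutrophil markers in the lower Cxcl1, Cxcl2, Cxcl5 and Cxcr2 counts was not tested.

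Promoter windows of 250 bases before the gene start were found in RefSeq (GRCm38.p6) for 41 of the 55 members, and those of the Cxcr2 ligands Cxcl1, Cxcl2 and Cxcl3 are printed because these neighbours hold the same stretch of letters. Among ligands of other receptors, Ccl3, Ccl6, Cx3cl1, Cxcl13 and Cxcl14 were lower in the knockout library without an NF-kB match in their windows, and are not printed. Ccl9 and Cxcl10, lower as well, are printed as the only other compared ligands with such a match. Each is written 5′ to 3′ on the strand of the gene, and capitals mark matches to the consensus of NF-kB, an inflammatory transcription factor, or, in Cxcl10, to GAAANNGAA, a core of sites bound by interferon regulatory factors.
Cxcl1 (chr5:90890995-90891244, plus strand): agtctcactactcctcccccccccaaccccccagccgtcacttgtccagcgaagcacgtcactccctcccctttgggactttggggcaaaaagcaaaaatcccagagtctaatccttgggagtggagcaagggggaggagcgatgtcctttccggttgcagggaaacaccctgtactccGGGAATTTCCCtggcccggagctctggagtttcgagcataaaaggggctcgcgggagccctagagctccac
Cxcl2 (chr5:90903649-90903898, plus strand): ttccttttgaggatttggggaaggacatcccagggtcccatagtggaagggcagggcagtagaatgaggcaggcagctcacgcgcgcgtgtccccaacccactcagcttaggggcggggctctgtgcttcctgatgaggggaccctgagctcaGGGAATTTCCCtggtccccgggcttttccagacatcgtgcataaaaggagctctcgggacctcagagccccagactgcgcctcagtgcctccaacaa
Cxcl3 (chr5:90785851-90786100, plus strand): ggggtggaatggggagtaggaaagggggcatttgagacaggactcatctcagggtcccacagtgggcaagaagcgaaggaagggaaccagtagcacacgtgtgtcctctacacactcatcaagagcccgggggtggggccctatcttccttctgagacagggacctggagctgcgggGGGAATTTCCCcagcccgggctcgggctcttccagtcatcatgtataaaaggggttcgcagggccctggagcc
Ccl9 (chr11:83578637-83578886, minus strand): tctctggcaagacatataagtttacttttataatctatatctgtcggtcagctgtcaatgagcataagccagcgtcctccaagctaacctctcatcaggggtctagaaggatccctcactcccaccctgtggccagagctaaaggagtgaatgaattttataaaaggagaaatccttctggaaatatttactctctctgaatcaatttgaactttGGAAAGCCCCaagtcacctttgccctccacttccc
Cxcl10 (chr5:92348890-92349139, minus strand): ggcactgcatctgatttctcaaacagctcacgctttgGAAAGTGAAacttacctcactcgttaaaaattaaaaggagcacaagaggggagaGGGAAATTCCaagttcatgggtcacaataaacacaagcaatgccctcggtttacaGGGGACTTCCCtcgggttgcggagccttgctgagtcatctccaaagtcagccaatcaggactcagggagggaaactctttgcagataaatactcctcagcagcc

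The same letters, GGGAATTTCCC, stood in the windows of Cxcl1, Cxcl2 and Cxcl3, where they hold overlapping matches on both strands that begin 71, 97 and 73 bases before the start. Searched on both strands, the NF-kB consensus was present in 9 of the 48 windows of the 41 members (18.8%) and in 7.25% of all 32851 promoter windows. The compared members with it were Cxcl1, Cxcl2, Cxcl10, Ccl9, Ccr1 and Ackr2. All but Ccl9 passed the filter through the PyMT library alone, which fixes a log2 ratio below 0, so their direction says nothing about the motif. The E-box CACCTG, a sequence that Zeb1 is known to bind, was in 8 of the 48 windows (16.7%) and in 17.2% of all windows, and was not in the windows of Cxcl1, Cxcl2 or Cxcl3. The STAT motif TTCNNNGAA was in 3 of the 48 windows (6.25%) and in 7.02% of all windows, and the interferon response core GAAANNGAA in 6 of the 48 (12.5%) and in 7.13% of all windows. The motifs were chosen with the ratios known, and a match is a description of the letters, not of binding.

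None of the 8 compared CXC ligands had a log2 ratio above 0, but Cxcl1, Cxcl2, Cxcl10 and Cxcl13 passed the filter through the PyMT library alone, which fixes that sign. Cxcl10, an interferon-induced ligand of Cxcr3 that attracts activated T cells, was at 0.25 FPKM (5 counts) in the knockout library and 1.24 FPKM (25 counts) in the PyMT library, a count ratio of 0.203 (0.0606 to 0.539). Its neighbour Cxcl9, which acts on the same receptor, had 11 counts in each library, and Cxcl11 had 1 count, in the PyMT library. The receptor Cxcr3 had 4 counts in each library. So of this set of genes Cxcl10 alone differed beyond counting error. Cxcl13, a B cell chemokine, had 2 counts in the knockout library and 25 in the PyMT library, a count ratio of 0.0811 (0.00931 to 0.325), while its receptor Cxcr5 had 1 count in the knockout library and 2 in the PyMT library. T and NK cell markers were sparse in both libraries, with a summed level of 3.73 FPKM in the knockout library and 3.03 FPKM in the PyMT library over 7 genes. B cell markers summed to 0.40 FPKM in the knockout library and 0.34 FPKM in the PyMT library. Cxcl14, a chemokine of epithelia, was among the most abundant ligands, at 14.23 FPKM in the knockout library and 21.65 FPKM in the PyMT library, a count ratio of 0.664 (0.592 to 0.743). Cxcl17, a mucosal chemokine, was at 6.09 FPKM in the knockout library and 10.07 FPKM in the PyMT library, a count ratio of 0.622 (0.461 to 0.834). The 6 epithelial markers had count ratios between 0.33 (Krt19) and 0.699 (Cdh1), a wide range that holds both values. The part of these markers in the Cxcl14 and Cxcl17 values was not tested.

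Cxcl12, a homeostatic chemokine of stromal cells, was nearly level between the libraries, but the balance of its receptors differed. Cxcl12 was at 4.34 FPKM in the knockout library and 4.88 FPKM in the PyMT library, with a count ratio of 0.908 (0.748 to 1.1) that spans 1. Cxcr4, its signalling receptor, was at 32.04 FPKM (1123 counts) in the knockout library and 15.59 FPKM (549 counts) in the PyMT library, a count ratio of 2.07 (1.87 to 2.3). Ackr3, the atypical receptor that takes up Cxcl12 and Cxcl11, went the other way, at 13.03 FPKM (522 counts) in the knockout library and 22.99 FPKM (929 counts) in the PyMT library, a count ratio of 0.57 (0.511 to 0.635). The ratio of Cxcr4 FPKM to Ackr3 FPKM was thus 2.46 in the knockout library and 0.678 in the PyMT library. Of the 6 fibroblast markers 1 was 2-fold higher (Lum) and none was lower, with a median log2 ratio of 0.30, and of the 6 endothelial markers 1 was 2-fold lower (Cldn5) and none was higher, with a median of -0.55, beside 10.2% higher and 8.78% lower among all genes. The endothelial genes summed to 42.48 FPKM in the knockout library and 73.88 FPKM in the PyMT library. Their part in the Cxcr4 and Ackr3 values was not tested.

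The ligands made as membrane-anchored proteins, Cxcl16 and Cx3cl1, were the most abundant in the PyMT library and both were lower in the knockout library, by different amounts. Cxcl16, which attracts Cxcr6-positive T cells and also acts as a scavenger receptor, was at 12.19 FPKM in the knockout library and 39.6 FPKM in the PyMT library, a count ratio of 0.312 (0.284 to 0.342) and a log2 ratio of -1.62. Its counts were not whole numbers, and 20.5% of its annotated exonic bases are shared with Zmynd15 on the opposite strand (1.39 FPKM in the knockout library and 3.82 FPKM in the PyMT library), so its ratio carries that uncertainty. Cx3cl1, or fractalkine, was at 23.16 FPKM (1464 counts) in the knockout library and 35.0 FPKM (2232 counts) in the PyMT library, a count ratio of 0.665 (0.622 to 0.711). Cx3cr1, its only known receptor and a gene of monocytes and resident macrophages, was higher, at 7.64 FPKM (582 counts) in the knockout library and 1.34 FPKM (103 counts) in the PyMT library. Its count ratio of 5.73 (4.64 to 7.14) and log2 ratio of 1.88 were the highest among the compared receptors. Cx3cl1 stood at 3.03 times the FPKM of Cx3cr1 in the knockout library and at 26.1 times in the PyMT library. None of the 6 macrophage markers was past 2-fold. Csf1r, the receptor of the macrophage growth factor, had a count ratio of 1.12 (1.03 to 1.22), and the macrophage surface gene Adgre1 one of 1.54 (1.29 to 1.84), so Cx3cr1 differed by more than either. Cxcr6 had 7 counts in the knockout library and 2 in the PyMT library, too few for a direction. The sheddases Adam10 and Adam17, which release both ligands from the membrane, had count ratios of 1.47 (1.38 to 1.58) and 1.48 (1.37 to 1.61).

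The CC ligands split by their place on chromosome 11. A first block from 82035577 to 82116799 holds Ccl2, Ccl7, Ccl11, Ccl12 and Ccl8, which act mainly on Ccr2, Ccr3 and Ccr8. A second block from 83525778 to 83664683 holds Ccl5, Ccl9, Ccl6, Ccl3 and Ccl4, several of which act on Ccr1. The first block had 228 counts in the knockout library and 127 in the PyMT library, a count ratio of 1.82 (1.46 to 2.28), and 4 of its 5 genes were higher after division by the library totals. The second had 168 counts in the knockout library and 674 in the PyMT library, a count ratio of 0.253 (0.212 to 0.3), and all 5 genes were lower.

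**Figure D2:**
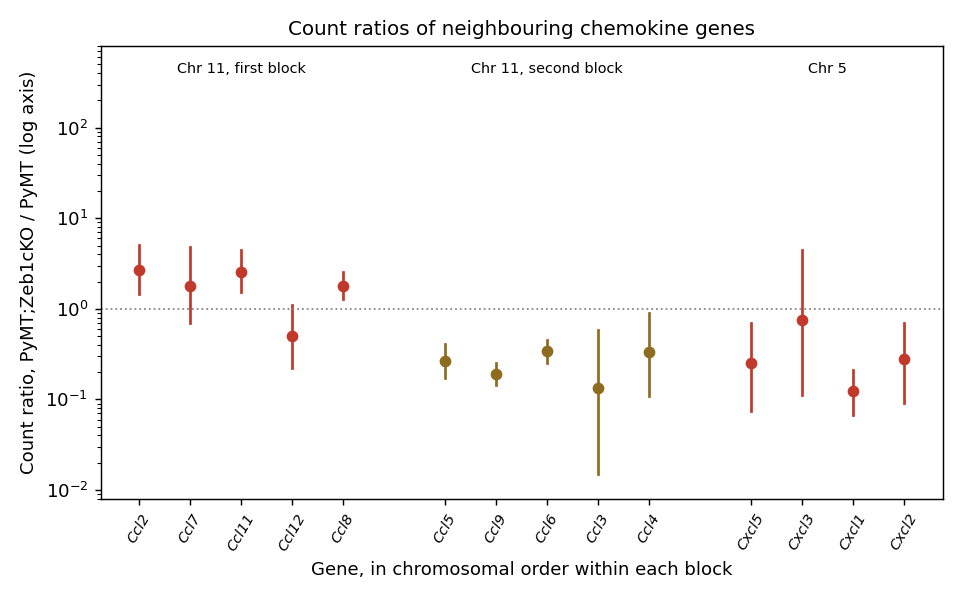
Count ratio, PyMT;Zeb1cKO over PyMT, on a log axis for genes of 3 chromosomal blocks in their order on the chromosome. Points are ratios from 1 library per genotype, bars are exact 95% counting intervals, and the dotted line marks equal counts per library total. The points of the second block of chromosome 11 and of chromosome 5 all lie below 1, and those of the first block of chromosome 11 lie above 1 apart from Ccl12.

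Within the first block, Ccl2, the main monocyte attractant, was at 3.12 FPKM (42 counts) in the knockout library and 1.2 FPKM (16 counts) in the PyMT library, a count ratio of 2.66 (1.47 to 5.07). Ccl11, or eotaxin, which attracts eosinophils, was at 2.93 FPKM (56 counts) in the knockout library and 1.15 FPKM (22 counts) in the PyMT library, a count ratio of 2.58 (1.55 to 4.44). Ccl8, which acts on Ccr8 in mice, was the most abundant gene of the block, at 14.37 FPKM (105 counts) in the knockout library and 8.34 FPKM (59 counts) in the PyMT library, a count ratio of 1.8 (1.3 to 2.53). Ccl7 had 14 counts in the knockout library and 8 in the PyMT library, a count ratio of 1.77 (0.695 to 4.88). Ccl12, a mouse ligand of Ccr2, was the exception, with 11 counts in the knockout library and 22 in the PyMT library, a count ratio of 0.507 (0.222 to 1.09). The intervals of Ccl7 and Ccl12 span 1, and those of Ccl2, Ccl11 and Ccl8 lie above it. None of the 4 compared genes of the block passed 2-fold on the log2(FPKM + 1) scale.

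Within the second block, 3 of the 5 genes were at least 2-fold lower, beside 8.78% of all genes compared. Ccl5, or RANTES, a T cell and monocyte attractant, had 29 counts in the knockout library and 110.05 in the PyMT library, a log2 ratio of -1.69 and a count ratio of 0.267 (0.171 to 0.406), with an estimated count that was not whole. Ccl9 was at 1.03 FPKM (62 counts) in the knockout library and 5.34 FPKM (325 counts) in the PyMT library, a count ratio of 0.193 (0.145 to 0.255). Ccl6, its neighbour and relative, both known from rodents as myeloid attractants, was at 2.57 FPKM (69 counts) in the knockout library and 7.66 FPKM (206 counts) in the PyMT library, a count ratio of 0.34 (0.255 to 0.448). Ccl3 and Ccl4, the macrophage inflammatory proteins, were low. Ccl3 had 2 counts in the knockout library and 15 in the PyMT library, a count ratio of 0.135 (0.015 to 0.581). Ccl4 had 6 counts in the knockout library and 18 in the PyMT library, a count ratio of 0.338 (0.11 to 0.889). In all 5 genes of this block the interval lay below 1. The lower neutrophil markers given with Cxcl1 stand beside these genes too. The 6 pan-leukocyte genes summed to 175.7 FPKM in the knockout library and 173.0 FPKM in the PyMT library. Single genes of that list differed in both directions, all within 2-fold. Their count ratios ran from 0.548 (0.438 to 0.684) for Cd53 to 1.64 (1.54 to 1.73) for Ikzf1. The part of the neutrophil and pan-leukocyte markers was not tested.

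Among receptors of these CC ligands, Ccr1 was lower and Ccr2 higher in the knockout library. Ccr1, a receptor of Ccl3, Ccl5, Ccl6 and Ccl9 on neutrophils and monocytes, was at 0.85 FPKM (48 counts) in the knockout library and 2.56 FPKM (146 counts) in the PyMT library, a count ratio of 0.333 (0.235 to 0.465). Ccr2, the receptor of inflammatory monocytes for Ccl2, Ccl7 and Ccl12, had 34 counts in the knockout library and 7 in the PyMT library, a count ratio of 4.93 (2.15 to 13.2), at levels below 1 FPKM in both. Ccr9, Cxcr6 and Xcr1 had 5, 7 and 5.89 counts in the knockout library and 1, 2 and 2 in the PyMT library, with intervals that span 1.

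Among the homeostatic CC ligands the contrast was largest for Ccl21a, the chemokine of lymphatic endothelium and lymphoid stroma. It was at 5.45 FPKM (80.57 counts) in the knockout library and 0.21 FPKM (3 counts) in the PyMT library, a count ratio of 27.4 (9.04 to 136) and the highest log2 ratio of the compared members, 2.41. Ccl21a passed the filter through the knockout library alone, which fixes a log2 ratio above 0. The gene has near-identical copies, of which Ccl21b had 1 count in the PyMT library and none in the other, so the share of reads of each copy is uncertain. Ccr7, its receptor on dendritic and naive T cells, had 13 counts in the knockout library and 3 in the PyMT library, a count ratio of 4.39 (1.21 to 24). Ccl19, the other ligand of Ccr7, had 1 count, in the PyMT library. Ackr4, the atypical receptor that scavenges Ccl19, Ccl21 and Ccl25, was lower, at 0.29 FPKM (12 counts) in the knockout library and 1.81 FPKM (75 counts) in the PyMT library, a count ratio of 0.162 (0.0803 to 0.3). It passed the filter through the PyMT library alone, which fixes a log2 ratio below 0. Of its annotated exonic bases 11.9% are shared with Acad11 on the opposite strand. The 4 lymphatic endothelial markers summed to 5.01 FPKM in the knockout library and 9.94 FPKM in the PyMT library. The 2 compared were within 2-fold and below 1 in count ratio, at 0.489 (0.394 to 0.603) for Pdpn and 0.341 (0.259 to 0.444) for Flt4. Of the others, Lyve1 had 14 counts in the knockout library and 11 in the PyMT library, and Prox1 had 30 in the knockout library and 10 in the PyMT library. Their part was not tested.

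Of the CC chemokines of skin and mucosa, Ccl27a and Ccl25 had intervals that span 1 and Ccl28 was lower in the knockout library. Ccl27a, a keratinocyte chemokine, was at 12.44 FPKM in the knockout library and 9.45 FPKM in the PyMT library, a count ratio of 1.24 (0.942 to 1.63), with counts that it may share with its copy Ccl27b. Ccl25, a ligand of Ccr9, had 51 counts in the knockout library and 41 in the PyMT library, a count ratio of 1.26 (0.82 to 1.95). Ccl28, a mucosal ligand also made by mammary epithelium, had 28 counts in the knockout library and 69 in the PyMT library, giving a count ratio of 0.412 (0.255 to 0.647). Ccl22, which attracts Ccr4-positive regulatory T cells, had 20 counts in the knockout library and was not listed in the PyMT library. Ccl17, its neighbour on chromosome 8 and a ligand of the same receptor, had 6 counts in the knockout library and 7 in the PyMT library. Xcl1, a product of T and NK cells, had 7 counts (1.00 FPKM) in the knockout library and was not listed in the PyMT library, so its place among the 2-fold higher genes rests on those 7 counts.

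**Figure D3:**
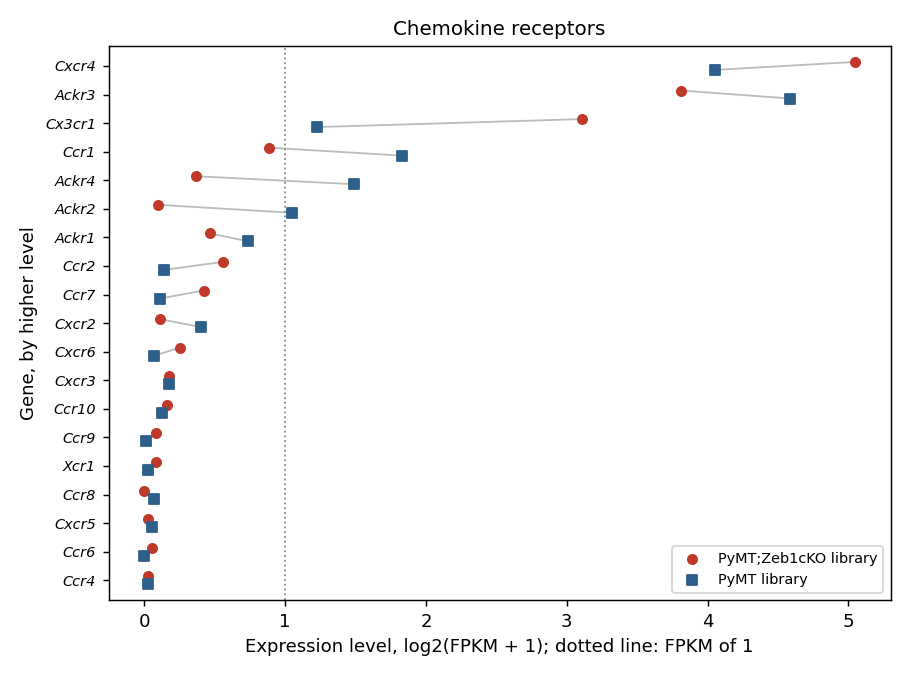
Levels of 19 chemokine receptors as log2(FPKM + 1), with a circle for the PyMT;Zeb1cKO library and a square for the PyMT library, 1 library each, ordered by the higher level. Cxcr4 and Cx3cr1 are higher in the PyMT;Zeb1cKO library, Ackr3, Ccr1, Ackr4 and Ackr2 are lower, and the rest lie left of the dotted line at 1 FPKM.

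Signalling and atypical receptors pointed in opposite directions as pools. The 16 signalling receptors had 1968 counts in the knockout library and 909 in the PyMT library, a count ratio of 2.2 (2.03 to 2.38), to which Cxcr4 and Cx3cr1 contributed most. The 4 atypical receptors had 546 counts in the knockout library and 1082 in the PyMT library, a count ratio of 0.512 (0.461 to 0.568), carried by Ackr3. Ackr2, a scavenger of inflammatory CC chemokines, showed the lowest ratio of the compared receptors, with 4 counts in the knockout library and 64 in the PyMT library, a count ratio of 0.0634 (0.0168 to 0.17). Its log2 ratio was -0.95, because the pseudocount of 1 FPKM holds back a gene at 1.07 FPKM. Ackr1, a chemokine carrier of venular endothelium and red cells, had 8 counts in the knockout library and 14 in the PyMT library, a count ratio of 0.58 (0.211 to 1.48). So 3 of the 4 atypical receptors had intervals below 1 and that of Ackr1 spanned it.

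When ligands were set beside their receptors from a list of 33 known pairs, both partners could be compared in 7. In 2 of these pairs the ligand and receptor had log2 ratios of opposite sign, and in 5 both were below 0. The opposite pairs were those of Cx3cl1 with Cx3cr1 and of Cxcl12 with Cxcr4, in each of which the ligand was lower and the receptor higher. The pairs that were lower on both sides were those of Ccl3, Ccl5, Ccl6 and Ccl9 with Ccr1 and of Cxcl12 with Ackr3. Several pairs share a gene, so they are not independent. Ccr1 and Ccl3 passed the filter through the PyMT library alone, which fixes their sign, so these counts describe the pairs left by the filter and nothing more. The filter also left out pairs with both count ratios above 1, such as Ccl2 (2.66) with Ccr2 (4.93) and Ccl21a (27.4) with Ccr7 (4.39). In another 13 pairs the ligand was compared but its receptor was below 1 FPKM in both libraries, among them Cxcl1 with Cxcr2, Cxcl16 with Cxcr6 and Ccl27a with Ccr10.

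**Figure D4:**
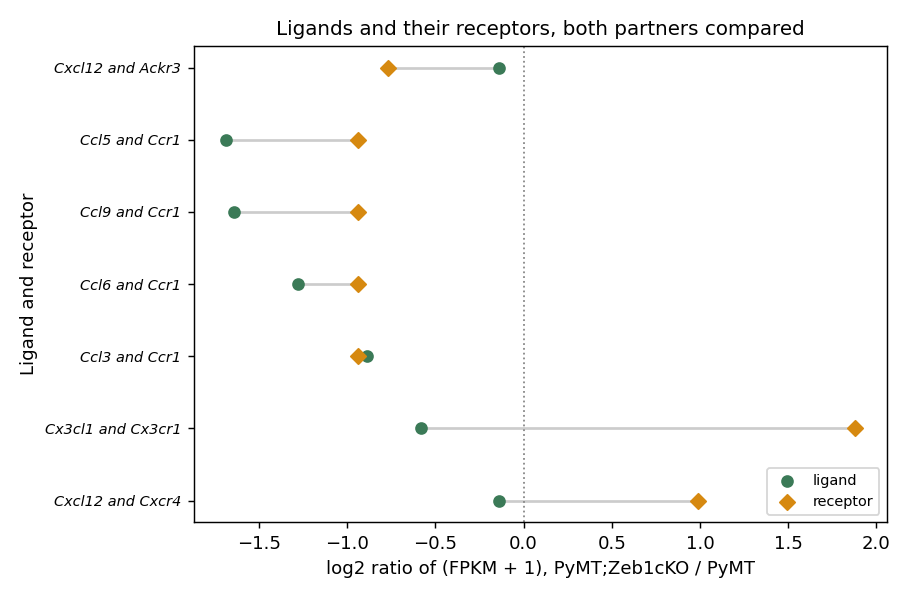
The log2 ratio of (FPKM + 1), PyMT;Zeb1cKO over PyMT, of the ligand (circle) and the receptor (diamond) in the 7 pairs where both partners were compared, 1 library per genotype. In the 2 pairs with Cx3cr1 or Cxcr4 the symbols lie on opposite sides of 0.

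The remaining members were scarce. Below the filter were 13 ligands, none above 0.92 FPKM, and 13 receptors, none above 0.67 FPKM. Those not yet named are Ccl20, with 1 count in each library, Ccl24, with 3 counts in the knockout library, Ccr4, with 1 count in each, Ccr6, with 1 count in the knockout library, Ccr8, with 1 count in the PyMT library, and Ccr10, with 4 counts in the knockout library and 3 in the PyMT library. At these counts no difference was detectable.

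Other genes of chemokine action were mostly within 2-fold. Among 6 compared genes for chemokine-like ligands and receptors, 1 was higher and 1 lower, beside 10.2% and 8.78% of all genes. The lower one was Rarres2, which encodes the attractant chemerin, at 4.47 FPKM in the knockout library and 22.19 FPKM in the PyMT library, and the higher one was its receptor Cmklr1, at 13.51 FPKM in the knockout library and 4.52 FPKM in the PyMT library. This pair thus showed a lower ligand and a higher receptor. Ccrl2, another receptor gene of this list, went the other way within 2-fold, with a count ratio of 0.5 (0.412 to 0.604). Of 16 compared genes that signal from chemokine receptors, 1 was higher and 1 lower, with a median log2 ratio of -0.08. Pik3cg, the leukocyte PI3 kinase subunit, was at 3.05 FPKM in the knockout library and 0.89 FPKM in the PyMT library. Rgs1, a brake on G protein signalling, was at 0.28 FPKM in the knockout library and 6.59 FPKM in the PyMT library. Both passed the filter through 1 library alone, Pik3cg the knockout and Rgs1 the PyMT library, which fixes the sign of their log2 ratios. Of 8 genes that process or present chemokines, 2 were lower and none was higher, with a median of 0.23. Dpp4 and Cpd had count ratios of 2.94 (2.3 to 3.79) and 2 (1.94 to 2.07), but were within 2-fold on the log2(FPKM + 1) scale. Dpp4 passed the filter through the knockout library alone, which fixes a log2 ratio above 0. The lower ones were the syndecans Sdc4, at 103.6 FPKM in the knockout library and 433.7 FPKM in the PyMT library, and Sdc1, at 44.37 FPKM in the knockout library and 133.8 FPKM in the PyMT library, whose heparan sulfate chains bind chemokines. Of 10 transcription factors that act on chemokine genes, 3 were lower and none was higher, with a median of -0.65. These were Irf7, with a count ratio of 0.176 (0.165 to 0.188), Fos, with 0.183 (0.17 to 0.196), and Jun, with 0.303 (0.293 to 0.314). The NF-kB subunits Rela and Nfkb1 were within 2-fold, with count ratios of 0.621 (0.595 to 0.648) and 1.18 (1.11 to 1.26).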

How the data were processed

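The authors deposited 1 table per library with an expected count per gene, a name RSEM uses for its estimated counts, and an FPKM value, per the file headers. RSEM 1.2.8, DESeq, Bowtie2 2.2.5 and HISAT2 2.1.0 are named beside mm10, with no role for each, per the submitters' processing notes. The sources used here do not give the annotation or whether counting used strand. Counts that are not whole (7 members, tolerance 1e-09) may be split between similar genes.

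From the deposited FPKM, log2 ratios used a pseudocount of 1 and genes that reached an FPKM of 1 in either library. Expected counts were rounded for count ratios with exact (Clopper-Pearson) intervals. A gene absent from a table was counted as 0. With 1 library a group no test was made, and 2-fold is a rule of size. Depth was 21277484 counts in the knockout library and 21580274 in the PyMT library. By rule full values were for members that passed the filter, with the rest by range and count, and of each other list up to 2 genes with the highest and 2 with the lowest log2 ratio were named. Members under the filter with values of their own, and Jun, Ngp, Retnlg, Adam10, Adam17, Rela and Nfkb1 were named after their values were seen. One receptor is included in the totals but is not reported here by itself. Members, lists and motifs were chosen with earlier results of these data known, and the interferon response core was shortened from a longer form after the matches of that form were seen. Blocks are neighbouring members at most 500000 bases apart. Gene coordinates and promoter windows are from RefSeq, GRCm38.p6, matched by Entrez ID, and exonic overlaps from GENCODE on the same assembly. The log2 ratio and the count ratio with its interval were checked on simulated counts. Genes with few counts, and the steps for blocks, windows and overlaps, were not part of that check. Python 3.11.15, numpy 2.4.6, pandas 2.3.3, scipy 1.17.1, matplotlib 3.10.9, R 4.3.3 and edgeR 4.0.16 (TMM factors alone) were used.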

Additional observations from a re-analysis of the deposited data

How the results depend on the processing

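No paired analysis was possible because each genotype has 1 library, and no replicate could be left out. All 117 values of the compared members under another pseudocount, scaling or floor kept the sign of the reported log2 ratio. Another pseudocount cannot turn that sign, nor could the floor, which applied to Xcl1 alone, so only the scalings could have. Of the 117 values, 106 moved by less than counting error, taken as 0.5 of the interval's width. The ligands 2-fold higher were 2 as reported, 4 with a pseudocount of 0.1, and 1 with an FPKM of at least 5, with at least 20 counts, with the median ratio, with TMM factors, without genes whose counts are not whole, or with a floor of 3 counts. The ligands 2-fold lower were 5 as reported, 10 with a pseudocount of 0.1, 8 with TPM and 3 without genes whose counts are not whole. The receptors 2-fold higher were 1 as reported and 2 with a pseudocount of 0.1. The receptors 2-fold lower were 1 as reported, 3 with a pseudocount of 0.1, with TPM or with TMM factors, 2 with the median ratio, and 0 with an FPKM of at least 5. At a threshold of 1.5-fold, 5 ligands and 3 receptors were higher and 12 and 4 lower, beside 23.7% and 17.3% of all genes. At 3-fold, 1 ligand and 1 receptor were higher and 4 and 0 lower, beside 3.27% and 3.53%. Among all genes, a pseudocount of 0.1 gave 14.7% higher and 11.6% lower, TPM 10.4% and 10.3%, and TMM factors 9.87% and 11.8%. The median ratio gave 7.60% and 10.5%, and an FPKM of at least 5 gave 10.7% and 9.03%. At least 20 counts gave 9.05% and 7.76%, whole counts alone 9.58% and 8.64%, and the floor 10.1% and 8.70%. For the ligands the median moved to -0.86 with a pseudocount of 0.1, to -0.12 without a filter, to -0.57 with at least 20 counts and to -0.78 with TPM. The median of the receptors was -0.28 with at least 20 counts, -0.91 with the median ratio and -0.93 with TMM factors, and turned to 0.02 without a filter and to 0.99 with an FPKM of at least 5, where fewer or more receptors enter. Of all genes past 2-fold, 53.7% were higher as reported and 42.0% after median ratio scaling, which moves the median log2 ratio of all genes to 0.00.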
